A study of Mus musculus with 16 samples.

Results

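H3K27Ac ChIP-seq peaks of 5 hepatocellular carcinoma (HCC) nodules were compared with those of 10 livers without tumor, 5 from wild type mice and 5 from inflamed Mdr2-/- mice. Peaks of the 15 lists on chromosomes 1 to 19 were merged wherever they overlapped or adjoined, which gave 55617 regions. A region was occupied in an animal when 1 of its peaks overlapped it by at least 1 bp. Regions that 4 or 5 nodules and no more than 1 of 10 livers occupied are called nodule regions, and there were 266 of them. Regions that 9 or 10 livers and no more than 1 of 5 nodules occupied are called liver regions, and there were 249. The 515 members were thus selected on the presence of peaks, so that their occupancy is a description of the selection and carries no test.

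Acetylation of lysine 27 of histone H3 is deposited by the co-activators p300 and CBP on nucleosomes flanking active promoters and enhancers, and it is lost when these elements are switched off. In the liver a large part of this landscape belongs to hepatocytes and follows the transcription factors that maintain hepatocyte identity and metabolism. Mdr2, encoded by Abcb4, moves phosphatidylcholine into bile. Without it, bile salts are not properly emulsified and injure the biliary surface of hepatocytes, the liver becomes chronically inflamed, and nodules of HCC arise in old animals.

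WT livers came from mice of 14 to 19 months that carry Mdr2, whose strain is FVB.129P2 in the sample labels and FVB/NJ in the text of the study. Inflamed livers came from Mdr2-KO mice (FVB.129P2-Abcb4tm1Bor/J) of 7 to 8 months, and nodules from Mdr2-KO mice of 14 to 19 months. All 15 animals had received clodronate liposomes, at 50 μg per g of body weight in the labels, 48 h before collection, to remove macrophages. The ages and the dose given here are those of the labels. The text of the study states another amount of clodronate and narrower ages for the Mdr2-KO mice. According to the study, clodronate also lowered lymphocytes in normal liver and not clearly in inflamed or neoplastic liver, so that its effect on other cells may differ between the groups. The nodules therefore shared their genotype with the inflamed livers and their age range with the WT livers, and neither liver group matched them in both. The knockout affects every cell of the body, each library stands for 1 animal, and the tissue was processed whole. In such material, fewer cells of a type and less acetylation per cell cannot be told apart. Mice of both sexes were used in the study, and the labels do not give the sex of each animal. Peaks on chromosome Y were listed in nodule 1 (13 peaks) and WT liver 1 (15 peaks), while the remaining lists held none, and their relation to the results was not tested. Without gene annotation of the build of the files, the tissue labels could not be checked against marker genes.

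Lists held 25867 to 41863 peaks on the 19 autosomes. Sequencing depth is unknown, because the lists give positions and the score of the peak caller and no read counts. Nodules had 32848 ± 6914 peaks (SD, n = 5) and the livers 32662 ± 5417 (SD, n = 10), a difference within the spread between animals (exact two-sided permutation test, p = 0.961, adjusted p = 0.961 over 4 measures). Covered length, median peak width and the share of peaks at the most common score likewise gave an adjusted p of 0.961 in exact permutation tests. The pooled livers joined 2 groups that did not overlap, WT livers with 27722 ± 1390 peaks (25867 to 29618) and inflamed livers with 37602 ± 1756 (35188 to 40063; SD, n = 5 each), while the nodules spread from 26235 to 41863. Nodules had on average 5125 peaks more than WT livers (exact permutation test, adjusted p = 0.466) and 4755 fewer than inflamed livers (exact permutation test, adjusted p = 0.667). Nodule 1 (animal 124711) and WT liver 5 (animal 130748) stood apart from their groups, and results that turn on them are given with and without them. The study left outlying samples, not named in its text, out of a principal component analysis, and all 15 animals were kept here.

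On the whole landscape, nodules were less alike than livers. The base-pair Jaccard index, the length covered in both of 2 animals over the length covered in either, was 0.494 ± 0.0788 among nodules (SD, 10 pairs), 0.618 ± 0.111 among livers (SD, 45 pairs) and 0.530 ± 0.0710 between nodules and livers (SD, 50 pairs). Over all 15 animals, each nodule had a higher mean index with the livers than with the other nodules, and this depended on which animals were kept. Without nodule 1 the index was 0.548 ± 0.0355 among nodules (SD, 6 pairs) and 0.547 ± 0.0619 between nodules and livers (SD, 40 pairs), and nodule 2 alone had a higher mean with the livers (0.593) than with the other nodules (0.568). Without WT liver 5 as well, the index between nodules and livers was 0.560 ± 0.0495 (SD, 36 pairs). Nodule 2 (0.604 with the livers, 0.568 with the other nodules) and nodule 3 (0.568 and 0.555) then had a higher mean with the livers. The 2 means were close in nodule 4 (0.547 and 0.545) and in nodule 5 (0.521 and 0.523). Nodule 1 had a mean index of 0.459 with the livers. Its highest index with a single liver, WT liver 5, was 0.630, above the highest between any nodules, 0.584. The separation of nodules from the pooled livers did not pass the threshold (pseudo-F = 1.75, exact permutation test with 3003 assignments, p = 0.0719). It passed without nodule 1 and WT liver 5 (pseudo-F = 2.15, exact permutation p = 0.0490). Both animals were left out because they stood apart in these same data, so this p is not independent of their choice. Against either liver group alone the separation passed as well. The pseudo-F was 1.96 for WT livers (exact permutation p = 0.0238) and 2.70 for inflamed livers (exact permutation p = 0.00794, the smallest that 5 against 5 animals allow).

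Nodule regions made up 0.478% of all merged regions and liver regions 0.448%. The plot of regions by number of nodules and livers shows both sets as corners of a landscape in which most regions were either shared or found in few animals. All 15 animals shared 11874 regions, whereas 9336 regions had a peak in 1 nodule and no liver. Just outside the threshold, 771 regions had a peak in 3 of 5 nodules and at most 1 liver, and 108 had a peak in at least 4 nodules and in 2 livers. On the other side, 199 regions had a peak in 8 of 10 livers and at most 1 nodule, and 480 in at least 9 livers and in 2 nodules.

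**Figure D1:**
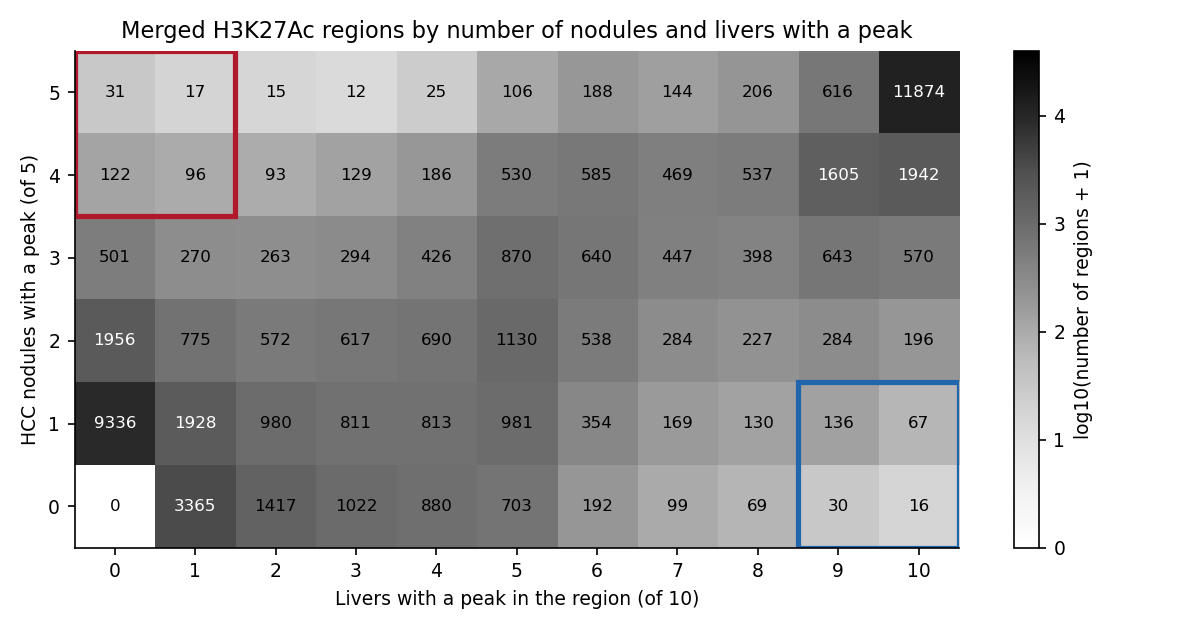
Number of merged regions (printed in each cell, shade on a log10 scale) by the number of livers with a peak (horizontal axis, of 10) and the number of nodules with a peak (vertical axis, of 5). The red frame holds the 266 nodule regions and the blue frame the 249 liver regions; the darkest cell holds the 11874 regions with a peak in all 15 animals.

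No single region passed a test across the whole table. Occupancy was compared in every region between nodules and livers with a two-sided Fisher exact test, and after Benjamini-Hochberg adjustment 0 of 55617 regions (0.0%) had an adjusted p under 0.05, the lowest adjusted p being 0.394. The smallest p that 5 against 10 animals allow in Fisher's exact test, 0.000333, was reached by 47 regions, 31 of them occupied in all nodules and no liver and 16 in all livers and no nodule. At least 371 such regions would be needed for an adjusted p of 0.05. An unadjusted p under 0.05 was found for 1624 regions (2.92%), of which 819 were occupied more often in nodules and 805 more often in livers. No single region was therefore called, and the regions below are described as members of a set.

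Nodule regions were mostly the property of 4 nodules and not of 5. All 5 nodules had a peak in 48 nodule regions, and 218 were missing in 1 nodule. The missing nodule was nodule 1 in 135 of these 218 regions (61.9%), nodule 5 in 35, nodule 4 in 24, nodule 2 in 15 and nodule 3 in 9. Nodule 1 accordingly had a peak in 49.2% of the nodule regions, while nodules 2 to 5 had one in 94.4%, 96.6%, 91.0% and 86.8%. Without nodule 1, and with at least 3 of the remaining 4 nodules required, 822 regions met the rule, so that the number of nodule regions depended strongly on this animal and on the number of nodules asked for.

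No liver had a peak in 153 nodule regions (57.5%), and a single liver had one in the other 113 (42.5%). That liver was WT in 54 regions and inflamed in 59. The single peaks were unevenly spread over the livers, with 25 in WT liver 5, 20 in inflamed liver 3, 19 in inflamed liver 2 and between 4 and 10 in each of the other livers. They were also weak. The score percentile of a peak is its rank within its own list, from 0 for the lowest score to 100 for the highest, and tied scores share a rank. Weak and strong refer to this rank and not to a measured amount of acetylation. The single liver peaks had a median percentile of 8.62 (quartiles 3.29 and 15.8), and 90.3% of them ranked at or below 25. In the same 113 regions the nodule peaks had a median percentile of 30.9.

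Liver regions had a peak on the other side more often than nodule regions did. The rule allowed 1 of 5 nodules in liver regions and 1 of 10 livers in nodule regions, so the 2 shares are not on like terms. All 10 livers had a peak in 83 of them and 9 livers in 166. The missing liver was WT liver 5 in 113 of the 166 regions (68.1%), WT liver 1 in 17 and WT liver 4 in 9, and it was 1 of the 5 inflamed livers in 23. A peak in a single nodule was present in 203 liver regions (81.5%), and no nodule had one in 46 (18.5%). Nodule 2 held 92 of these single peaks and nodule 3 held 80, whereas nodules 1, 5 and 4 held 15, 13 and 3. Nodules 2 and 3 had the longest lists among nodules, with 38547 and 41863 peaks. Their part in this count was not tested.

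Unlike the single liver peaks in nodule regions, the single nodule peaks in liver regions were not confined to the bottom of their list. Their median percentile was 25.8, with 48.8% at or below 25, beside a median of 32.5 for the liver peaks in the same 203 regions.

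The peaks of members had modest score ranks on both sides. The 1112 nodule peaks in nodule regions had a median percentile of 31.5 (quartiles 17.0 and 46.3), 39.9% of them ranked at or below 25, and 21.5% ranked above 50. Their per-animal medians were 23.3 in nodule 1 and 30.3, 34.8, 32.8 and 31.6 in nodules 2 to 5. Nodule 1 was thus lowest both in the number of nodule regions it had and in the rank of its peaks there. Nodule peaks ranked at a median of 35.0 in the regions of 5 nodules and 30.9 in those of 4.

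Liver regions gave similar ranks, with a median percentile of 32.2 over 2324 liver peaks (quartiles 19.5 and 46.4), 30.9 for WT and 33.1 for inflamed livers. Regions of 10 livers had a median of 37.6 and regions of 9 livers 29.2. In regions with a peak in all 15 animals the per-animal median lay between 70.2 and 87.5, beside 23.3 to 34.8 for nodules in nodule regions and 24.1 to 37.3 for livers in liver regions. Other regions with a peak in 4 to 6 animals, as many as nodule regions have, gave 25.4 for their nodule peaks, and other regions with a peak in 9 to 11 animals gave 33.6 for their liver peaks.

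Just outside the thresholds, ranks were lower where fewer animals had a peak. Nodule peaks had a median percentile of 23.8 in the 771 regions of 3 nodules, and of 30.4 in the 108 regions with 2 livers. Liver peaks had 26.4 in the 199 regions of 8 livers and 37.4 in the 480 regions with 2 nodules.

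**Figure D2:**
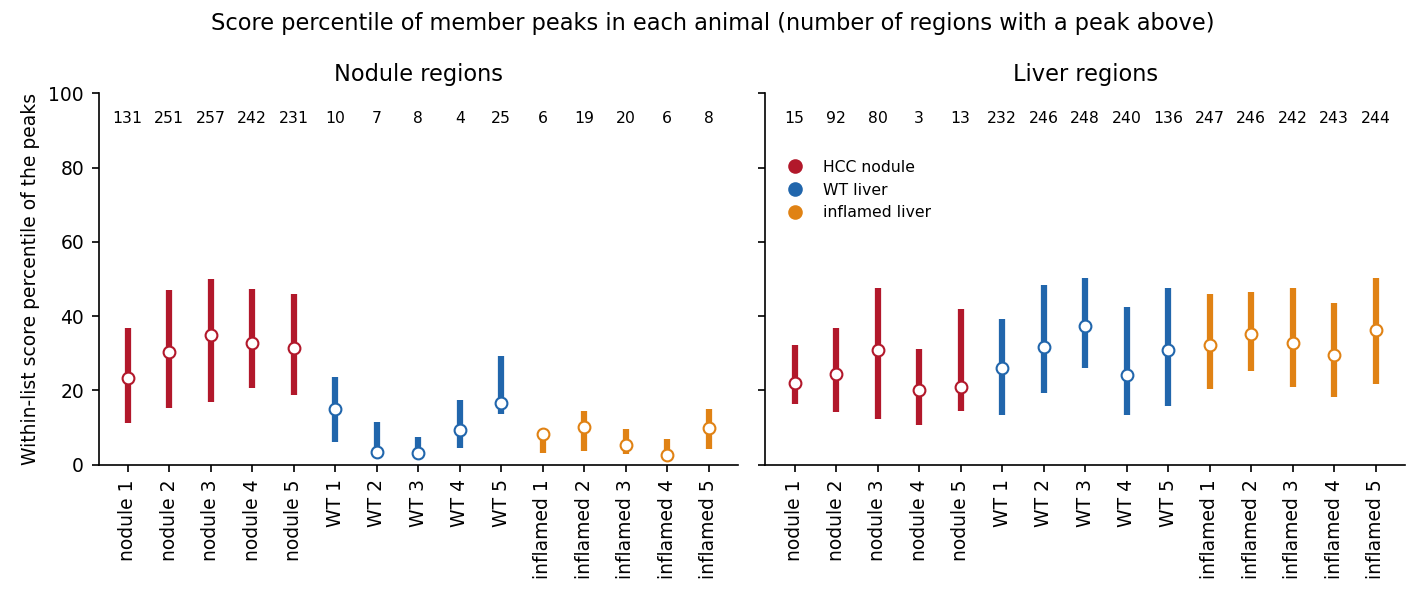
Within-list score percentile (vertical axis, 0 to 100) of the peaks of each animal in nodule regions (left) and liver regions (right); circles are medians, bars span the quartiles, and the number above is the number of regions with a peak. In nodule regions the nodules have medians of 23.3 to 34.8, and the few liver peaks lie lower, down to 2.54 in inflamed liver 4; in liver regions the medians of nodules and livers overlap.

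Because occupancy selected the members, each animal was also asked about regions chosen without it. Regions were chosen from the other 14 animals with at most 1 exception per side, so that 3 of 4 nodules sufficed when a nodule was left out and 8 of 9 livers when a liver was left out. The animal left out was then scored for a peak in them, beside other regions occupied in as many of the 14 animals. The other regions were matched on the number of animals and not on how many of these were nodules or livers. Nodule regions allowed at most 1 liver among the 14 animals, and liver regions at most 1 nodule. Other regions had no such limit, so the distance of an animal from its share in them is partly set by the rule. These shares are descriptions, as the 15 choices overlap.

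Nodule regions chosen without it had a peak in nodule 1 in 133 of 822 cases (16.2%), beside 11.3% of other regions. Nodules 2 and 3, with long lists, had a peak in 52.7% and 60.2%, beside 25.8% and 39.4% of other regions. Nodules 4 and 5 had one in 42.4% and 46.0%, beside 14.3% and 21.2%. All 5 nodules were thus above their own share in other regions, nodule 1 by the least. The 10 livers were all below theirs. WT livers had a peak in 4.38% to 18.0% of nodule regions, and WT liver 5, the highest of them, came close to its 20.2% in other regions. The inflamed livers had a peak in 8.13% to 17.2%, beside 44.7% to 63.6% of other regions. Unlike nodule regions, those regions could have peaks in several of the remaining livers, so this gap cannot be read apart from the rule. The mean share was 43.5% ± 16.7 in nodules (SD, n = 5) and 11.5% ± 4.12 in livers (SD, n = 10), and only nodule 1 lay within the range of the livers.

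For liver regions the nodules were less uniform. Left out in turn, nodules 2 and 3 had a peak in 72.5% and 70.9% of liver regions, beside 85.6% and 87.9% of other regions. Nodules 1, 4 and 5 had one in 33.1%, 26.1% and 39.2%, beside 39.4%, 60.2% and 59.5%. All 5 nodules were below their share in other regions, which could have peaks in more than 1 of the remaining nodules. Inflamed livers reached 87.5% to 93.9%, little above their 80.6% to 86.5% in other regions, so that these livers, with long lists, had nearly as many peaks in other regions of like occupancy. WT livers 1 to 4 reached 72.5% to 95.0%, beside 31.7% to 48.6%. WT liver 5 had a peak in 36.4% and was the only liver below its share in other regions, 44.6%.

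**Figure D3:**
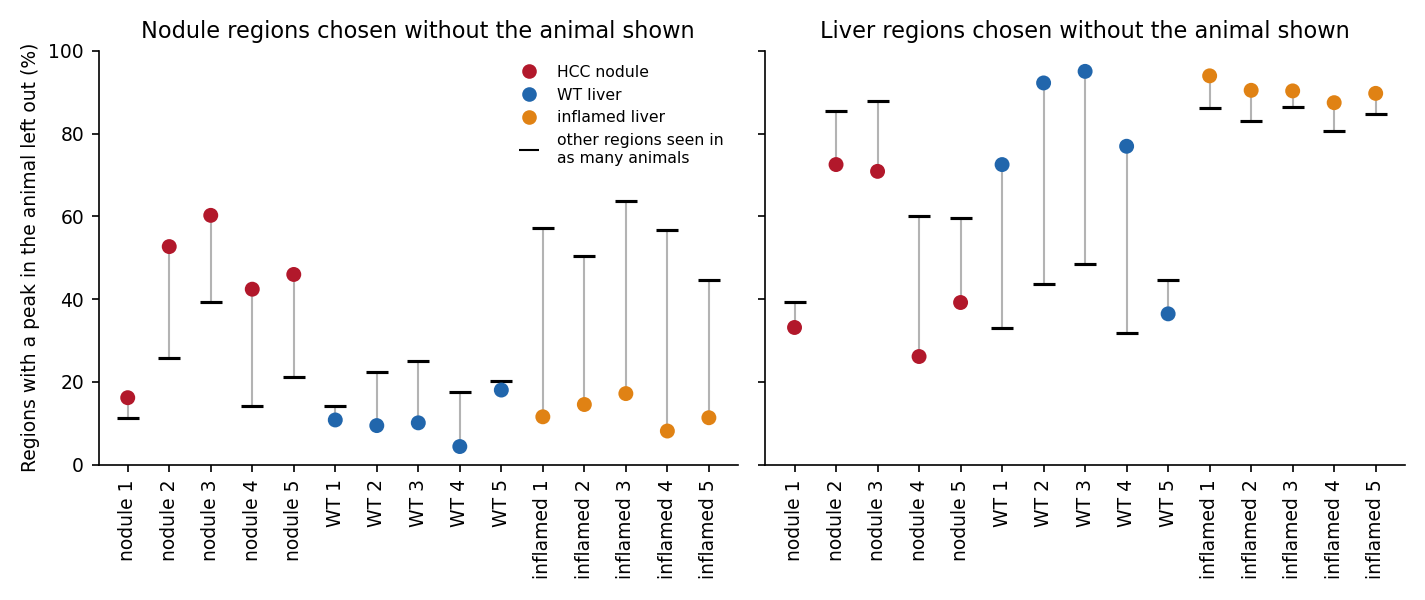
Share of nodule regions (left) and liver regions (right) with a peak in the animal left out of their choice (points, vertical axis in percent, 1 point per animal), with the animal's share in other regions occupied in as many of the other 14 animals (black dashes). In nodule regions all 5 nodules lie above their dash and all 10 livers below. In liver regions all 5 nodules lie below and 9 of 10 livers above, WT liver 5 being the exception. Other regions were matched on the number of animals and not on how many of these were nodules or livers.

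In width, a property that the rule did not use directly, nodule regions were wider than other regions of 4 to 6 animals. They had a median of 4537 bp (quartiles 3251 and 6075 bp, range 1646 to 33634 bp) beside 3234 bp in the 7179 other regions, and covered 1.38 Mb in all. Liver regions had a median of 4226 bp (quartiles 3413 and 5858 bp, range 1693 to 20008 bp), close to 4466 bp in the 4313 other regions of 9 to 11 animals, and covered 1.24 Mb. Regions over 10 kb numbered 11 nodule regions (4.14%) and 13 liver regions (5.22%), beside 1.14% of the other regions of 4 to 6 animals, 7.44% of those of 9 to 11 animals and 10.8% of all merged regions. The width of a merged region grows with the number of animals that contribute, and regions with a peak in all 15 animals had a median of 7379 bp.

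The 2 sets differed in where they lay relative to this shared landscape. A nodule region was within 10 kb of a region with a peak in all 15 animals in 88 of 266 cases (33.1%), beside 19.8% of other regions of 4 to 6 animals, and the median distance was 19524 bp beside 50732 bp. A liver region was within 10 kb in 41 of 249 cases (16.5%), beside 25.9% of other regions of 9 to 11 animals, and the median distance was 68552 bp beside 31713 bp. Over all merged regions the share was 26.4% and the median distance 32565 bp, between the values of the 2 sets. Nodule regions thus lay more often next to regions acetylated in every animal than regions of like occupancy did, and liver regions less often. These shares are descriptions with no test. The order was kept with lists of equal length (37.1% against 21.7% for nodule regions, 13.1% against 25.03% for liver regions), with scores of at least 100 (33.2% against 17.7%, 13.3% against 22.9%) and without nodule 1 and WT liver 5 (38.9% against 23.8%, 20.2% against 30.4%).

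**Figure D4:**
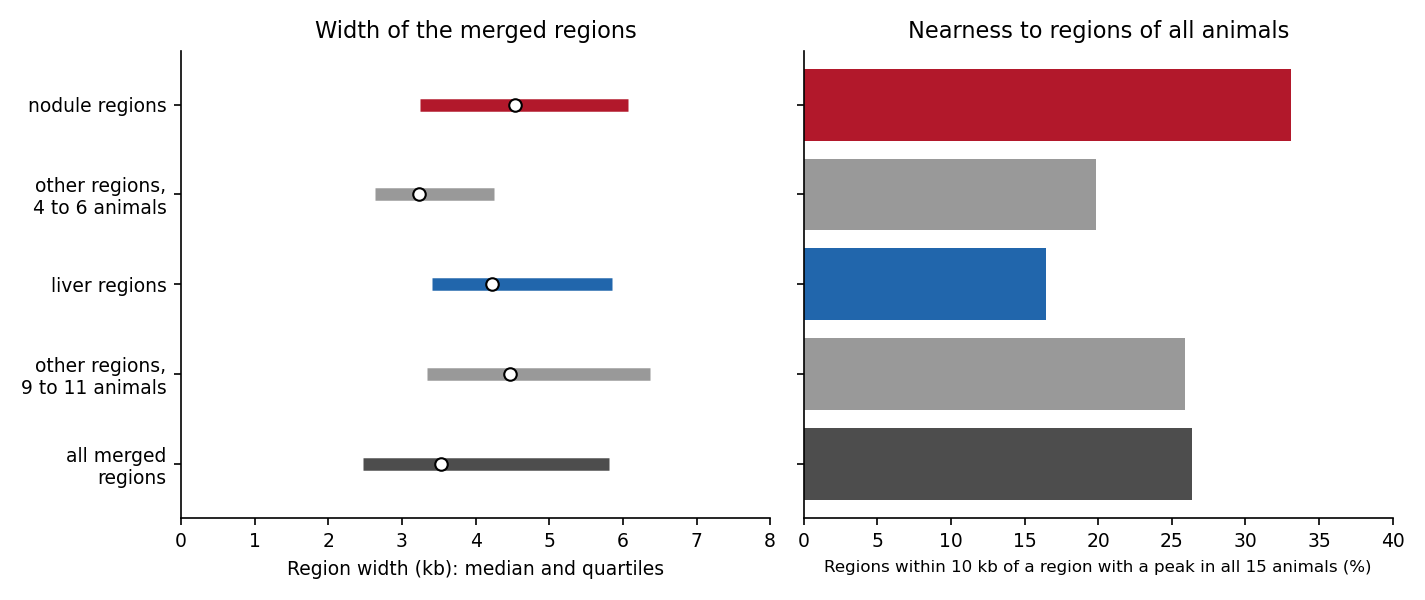
Left, width in kb of nodule regions, liver regions, other regions occupied in as many animals and all merged regions (circles, medians; bars, quartiles). Right, percentage of each set within 10 kb of a region with a peak in all 15 animals; nodule regions reach 33.1% beside 19.8% for other regions of 4 to 6 animals, and liver regions 16.5% beside 25.9% for other regions of 9 to 11 animals.

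Most members lay apart from each other, with some local groups. Another nodule region lay within 100 kb of 47 nodule regions (17.7%), whereas 3.26% of other regions of 4 to 6 animals had a nodule region within this distance. Another liver region lay within 100 kb of 37 liver regions (14.9%), beside 3.87% of other regions of 9 to 11 animals. A liver region was within 100 kb of 8 nodule regions (3.01%), close to the 4.01% of other regions of 4 to 6 animals and the 3.39% of all merged regions. Per 1000 merged regions, nodule regions numbered 4.78 over the 19 chromosomes and ranged from 2.77 on chromosome 6 (9 regions) to 7.60 on chromosome 17 (18 regions), with 7.28 on chromosome 5 (25 regions) and 7.24 on chromosome 1 (30 regions). Liver regions numbered 4.48 and ranged from 2.06 on chromosome 15 (5 regions) to 7.28 on chromosome 5 (25 regions). Chromosome 5 was high in both sets. Chromosome 1 was high for nodule regions and low for liver regions (11 regions, 2.66 per 1000), and chromosome 6 the reverse, with 19 liver regions (5.85 per 1000).

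Nodule regions fell in 176 of 502 windows of 5 Mb with any merged region, and liver regions in 169. The fullest windows for nodule regions were chromosome 1 from 155 to 160 Mb (5 nodule regions of 161 merged regions) and chromosome 5 from 145 to 150 Mb (5 of 209). For liver regions they were chromosome 5 from 110 to 115 Mb (5 of 161) and chromosome 2 from 165 to 170 Mb (5 of 240).

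The members described first were picked by the lowest percentile among all animals with a peak, which includes the peak of a single liver or nodule on the other side and so favours nodule regions without a liver peak. Coordinates here and below are those of NCBI37/mm9, counted from 1, and the genes around them were not assigned. The first nodule region, chr6:99923350-99930207 (6858 bp), ranked at 48.4 in nodule 1, 52.0 in nodule 3, 56.0 in nodule 4 and 56.6 in nodule 5, with no peak in nodule 2 or any liver. Its peaks were thus near the middle of each list. On nodule peaks alone other nodule regions ranked higher. One of these, chr4:100423091-100429832 (6742 bp), singled out after its values were seen, had percentiles of 74.97, 82.6, 63.8 and 56.4 in nodules 2 to 5 and a weak peak in inflamed liver 5, at 7.18. The second by the rule, chr15:25884365-25891253 (6889 bp), had percentiles of 50.7, 63.6, 46.7 and 46.0 in nodules 2 to 5. The third, chr16:13212126-13218495 (6370 bp), had 58.8, 41.7, 71.5 and 45.2 in the same nodules and lay 903 bp from a region with a peak in all 15 animals. The fourth, chr2:77283310-77287435 (4126 bp), had 58.6, 52.2, 41.5 and 60.7. These 3 regions lacked a peak in nodule 1 and in every liver. The fifth, chr6:140512884-140521396 (8513 bp), was the only 1 of the 5 with a peak in all nodules, at percentiles of 40.4, 43.6, 54.0, 68.8 and 77.9 in nodules 1 to 5, and it too had no peak in a liver.

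In the widest nodule regions, the covered length differed widely between nodules. In chr7:149733311-149766944 (33634 bp), peaks covered 5592 bp in nodule 1, 8590 bp in nodule 2, 26451 bp in nodule 3, 33087 bp in nodule 4 and 32636 bp in nodule 5, and no liver had a peak. Acetylation thus ran over most of the region in 3 nodules and over a small part in the other 2. The percentiles followed, with 25.01 and 32.8 in nodules 1 and 2 and 80.4, 92.9 and 88.8 in nodules 3 to 5. This region remained a nodule region with equal lists and with scores of at least 100.

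In chr14:119132034-119154376 (22343 bp), peaks covered 1527 bp in nodule 1, 2374 bp in nodule 2, 17699 bp in nodule 4 and all 22343 bp in nodule 5. Nodule 3 and the 10 livers had no peak there. The percentiles were 3.43, 22.9, 73.2 and 94.6 in the order of these nodules, so that high-ranking peaks were seen in nodules 4 and 5 alone. With equal lists or scores of at least 100 it no longer met the rule.

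The third, chr9:60815035-60834989 (19955 bp), was covered over 11849 bp in nodule 1, 2770 bp in nodule 2, 3414 bp in nodule 3 and its whole length in nodule 5. Percentiles were 45.3, 30.3, 59.4 and 81.3, and nodule 4 and the livers had no peak. Which nodules carried the wide domain thus differed between the 3 regions, and nodule 5 was the only nodule with a wide domain in each. These regions were picked for their width, and nodule 5 had the largest median peak width of the 15 lists (3995.5 bp). The part of this was not tested.

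**Figure D5:**
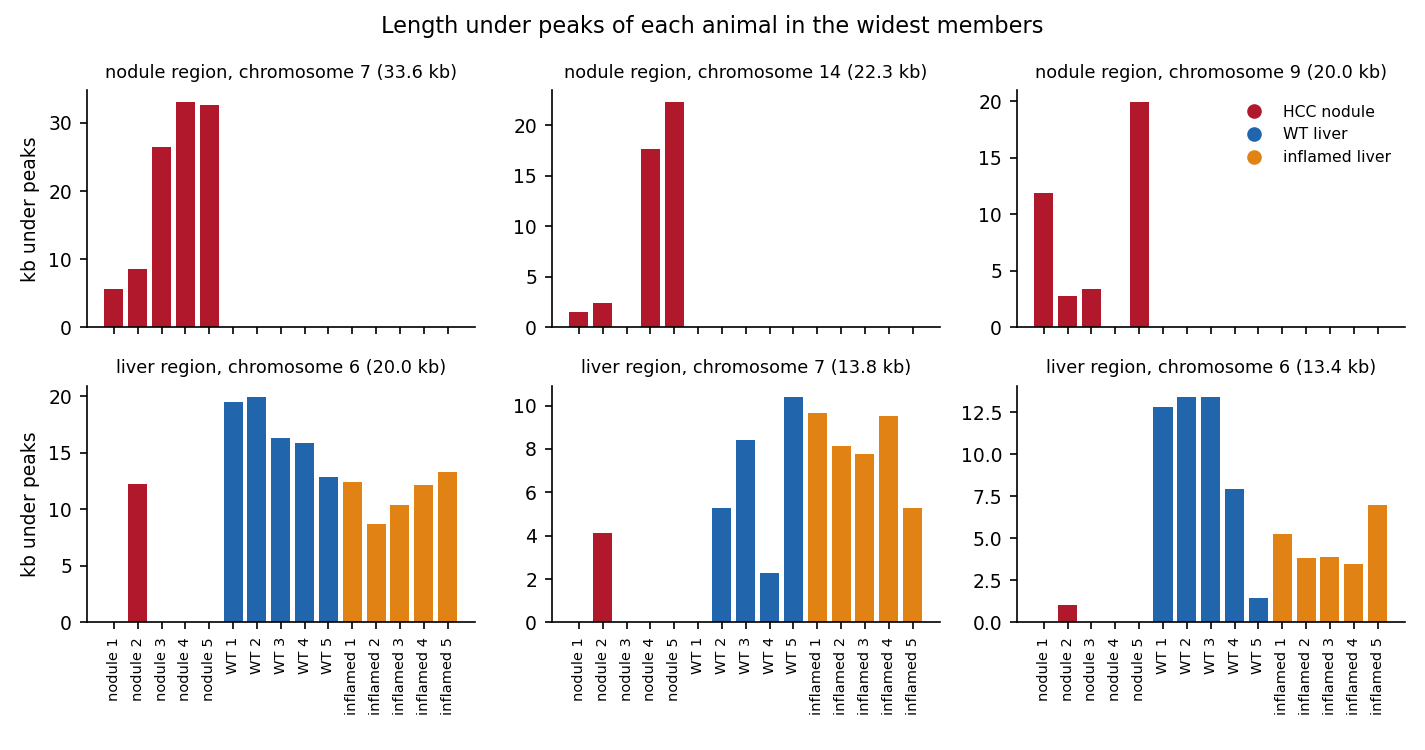
Length under peaks in kb (bars, vertical axis from 0, scale differs between panels) in each of the 15 animals for the 3 widest nodule regions (top) and the 3 widest liver regions (bottom). In the top row no liver has a peak, and the covered length differs widely between nodules, from 5592 to 33087 bp on chromosome 7; in the bottom row nodule 2 is the only nodule with a peak.

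On chromosome 1, the 5 nodule regions of the fullest window lay within 158586700 to 158864874. The first, chr1:158586700-158591436, had percentiles of 43.5, 43.8, 31.1 and 59.3 in nodules 1 to 4 and 5.90 in WT liver 4. The fourth, chr1:158789242-158795794, had 44.9, 69.8, 41.0 and 46.7 in nodules 2 to 5 and 12.6 in WT liver 4. The other 3 were weaker, with a lowest nodule percentile of 8.46, 10.5 and 0.629, and none had a peak in a liver. None of the 5 had a peak in all nodules.

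On chromosome 5, chr5:145139999-145143270 had a peak in all nodules, at 60.9, 36.4, 50.1, 77.0 and 61.0 in nodules 1 to 5, and a weak one in inflamed liver 3, at 5.15. Its neighbours chr5:145662928-145667648 and chr5:145669431-145680859 were occupied in all nodules and no liver. The former had percentiles of 32.5, 65.7, 34.7, 70.7 and 31.6, and the latter 37.6, 65.3, 20.3, 74.7 and 27.7. In both, nodules 2 and 4 ranked highest. The remaining 2 regions of the window, starting at 148395100 and 148400097, were weak, and no nodule ranked above 17.6 in the former or 21.0 in the latter.

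Among liver regions the first by the same rule was chr3:41233908-41238689 (4782 bp), with percentiles of 56.7, 60.1, 59.9 and 63.5 in WT livers 1 to 4 and 54.5 to 71.8 in inflamed livers. WT liver 5 had no peak, and nodule 3 had one at 70.1, above all but 1 of the livers. The region thus lacked a peak in 4 nodules and ranked in nodule 3 as in the livers.

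The second and also the widest, chr6:136852105-136872112 (20008 bp), was covered over 19494, 19954, 16331, 15863 and 12892 bp in WT livers 1 to 5 and over 8732 to 13297 bp in inflamed livers. Nodule 2 had 12223 bp under peaks and the other nodules none. Percentiles were 90.2 to 92.1 in WT livers 1 to 4, the rank that peaks at the most common score of 3100 share, 62.7 in WT liver 5, 61.7 to 79.7 in inflamed livers and 53.2 in nodule 2. In the third, chr5:113383913-113389446 (5534 bp), WT livers ranked at 51.3 to 90.2, inflamed livers at 46.5 to 63.7, and nodule 3 at 59.0.

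The fourth, chr11:95039029-95049267 (10239 bp), shows how a single nodule can set the width of a liver region. Nodule 1 had 9935 bp under peaks there, at a percentile of 64.6, while the 10 livers had 4423 to 5446 bp. In the fifth, chr7:135639362-135645867 (6506 bp), WT livers 1 to 4 ranked at 76.0, 99.7, 90.2 and 91.5, WT liver 5 at 39.4, inflamed livers at 66.0 to 73.4 and nodule 2 at 43.4.

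Of the other wide liver regions, chr6:25229896-25243303 (13408 bp) had 12783, 13407, 13393, 7934 and 1484 bp under peaks in WT livers 1 to 5 and 3495 to 7007 bp in inflamed livers. The single nodule with a peak, nodule 2, had 1039 bp. The WT livers 1 to 4 were all above the inflamed livers in covered length, and WT liver 5 was below them. In score rank WT liver 5 was the highest, at 99.9, beside 90.2 to 92.1 in WT livers 1 to 4. Inflamed livers ranked at 25.3 to 79.5 and nodule 2 at 27.4. In chr7:73396712-73410543 (13832 bp), missing in WT liver 1, peaks covered 2265 to 10404 bp in the other WT livers, 5290 to 9679 bp in inflamed livers and 4125 bp in nodule 2, whose percentile there was 1.27.

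The fullest windows of liver regions mostly held weaker members. On chromosome 5, chr5:111556637-111559154 was the only named liver region without a peak in any nodule, and its percentiles ran from 5.29 to 30.9 over the 10 livers. The 3 others of this window not yet described had a lowest liver percentile of 4.13 to 8.23, with a peak in nodule 3 in 2 cases and in nodule 1 in the other. The 5 of the chromosome 2 window, between 166997518 and 169829692, had a lowest liver percentile of 2.30 to 19.4, and each had a peak in 1 nodule, which was nodule 1, 2 or 3. Apart from chr5:113383913-113389446, whose lowest liver percentile was 46.5, all members of these windows thus ranked below 25 in at least 1 liver.

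The strictest members, 31 regions with a peak in every nodule and no liver, had a median width of 4926 bp (range 2648 to 33634 bp) and lay on 13 chromosomes, with 6 on chromosome 17, 6 on chromosome 18 and 5 on chromosome 5. Of these, 22 were also nodule regions with equal lists and 21 with scores of at least 100, 19 with both, and 10 lay within 10 kb of a region with a peak in all animals. The 16 regions with a peak in every liver and no nodule had a median width of 5716 bp (range 2411 to 11128 bp), lay on 11 chromosomes, and 1 lay within 10 kb of such a region. They were less stable than the 31, since 4 were also liver regions with equal lists and 7 with scores of at least 100.

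The identity of members depended on which peaks were admitted more than their number did. With equal lists, 221 nodule regions and 251 liver regions were found, but only 77 of the 266 nodule regions (28.9%) and 71 of the 249 liver regions (28.5%) overlapped a region that met the rule there. With scores of at least 100, 98 (36.8%) and 93 (37.3%) did. Among the 18 named nodule regions, 10 met the rule with equal lists and 12 with scores of at least 100, and among the 16 named liver regions 10 and 10 did. With the top 50% of each list, 7 of the original members remained in each set.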

How the data were processed

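H3K27Ac ChIP-seq was analysed for 15 animals. The authors called peaks in each animal separately and deposited 1 list per animal with peak positions and the score of the peak caller. The submitters' processing notes name Bowtie 0.12.7, MACS 1.4 and mm9, and the control and thresholds are not given in the sources used here. The deposited scores ran from 50 to 3233.06, many peaks shared 3100, and scores were used only as ranks within a list. No read counts were used, so depth is unknown, and a deeper library can give more peaks.

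Groups were taken from the sample labels. The members, lists and tests were chosen with earlier results of these data known. Merging, occupancy, Fisher exact tests, exact permutation tests and the pseudo-F of Jaccard distances were computed with Python 3.11.15, NumPy 2.4.6, SciPy 1.17.1 and pandas 2.3.3, with figures by matplotlib 3.10.9, and were tested on simulated data. Where an animal had several peaks in a region, the highest percentile was taken. Named regions were, per set, the 5 with the highest lowest percentile (ties to the wider region), the 3 widest and those in the 2 fullest windows of 5 Mb. The rule also named members within genome browser windows displayed by the study for a few genes. This was not applied, since the positions of those windows were legible only in pictures. Assigning members to genes, and printing their sequence, needs a genome and annotation of NCBI37/mm9, which were not used here, and this was not computed. A control library of WT liver, titled Input and with IgG given as its antibody, was not analysed here, and chromosome Y peaks were only counted. Alternatives were another overlap, equal lists, 2 score limits, bins, another merging distance, stricter occupancy, chromosome X, each animal left out, and the pair of nodule 1 and WT liver 5 left out. The alternatives for nearness to shared regions and for the Jaccard index were chosen after seeing the data.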

Additional observations from a re-analysis of the deposited data

Results flagged for a closer look

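In 24 groups of 5 values, the extreme animal was tested for a gap to its neighbour that is large relative to the range of the group, a criterion that chance alone meets in about 1 of 20 groups, and 3 values met it. Nodule 1 had a peak in 49.2% of nodule regions, the lowest among nodules, the next being 86.8%. WT liver 5 had a peak in 9.40% of nodule regions, the highest among WT livers, the next being 3.76%. The same animal had a peak in 54.6% of liver regions, the lowest among WT livers, the next being 93.2%. These shares were taken in regions that all 15 animals helped to choose, so the rate of 1 in 20 does not hold for them. The held-out shares were among the 24 groups, and none of them met the criterion. There, nodule 1 had a peak in 16.2% of nodule regions, the next nodule being at 42.4%. WT liver 5 had one in 36.4% of liver regions, the next WT liver being at 72.5%. Both animals also had the highest share of peaks at the most common score in their groups, 24.6% in nodule 1 and 23.7% in WT liver 5. The part of this in the shares of member regions was not tested.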

How the results depend on the processing

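No called value changed direction. The number of nodule and of liver regions was within 1.5 times the reported value with at least 50% of a region covered (329 and 289), equal lists (221 and 251), scores of at least 100 (217 and 225), a merging distance of 500 bp (245 and 238) and chromosome X added (268 and 256). It moved further with the top 50% of each list (107 and 106), bins of 1000 bp (1836 and 1195 bins), all animals of a side and none of the other (31 and 16) and without nodule 1 and WT liver 5 (856 and 484). Leaving out each animal gave 274 to 822 nodule regions, the most without nodule 1, and 261 to 580 liver regions, the most without nodule 3. Fewer animals also lower the number required. The pseudo-F passed the threshold without that pair (2.15), which was picked from these same data, against WT livers (1.96) and against inflamed livers (2.70). It did not pass with equal lists (1.83, exact permutation p = 0.0589) or with scores of at least 100 (1.72, exact permutation p = 0.0816). Nor did it pass with the top 50% of each list (1.56, exact permutation p = 0.130) or with chromosome X added (1.75, exact permutation p = 0.0733). With each animal left out it was 1.58 to 2.03, with an exact permutation p of 0.0350 to 0.137, under 0.05 without nodule 1 or without WT liver 5. Fisher's exact test called 0 regions in every setting run, with 644 to 1941 at an unadjusted p under 0.05. Differences in the 4 list measures changed sign under some settings, and their adjusted p was at least 0.201 (exact permutation tests) in all that were run. Held-out shares kept their direction. Nodules minus livers was 31.9 percentage points in nodule regions and -34.1 in liver regions, and 23.1 and -29.6 without the pair. No paired analysis was possible because replicate numbers were given here in accession order, and the labels tie no animal of a group to one of another. Depth per library is unknown and limits every count of peaks.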
